A study of Mus musculus with 83 samples.

Results

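In the mouse embryo, 60 of 23845 measured genes went from near silence at the 4-cell stage to a clear level in the morula. The members were the genes whose median was under 1 TPM (a transcript's length-scaled share of its library) over control 4-cell embryos and at least 20 TPM over control morulae. Both limits were met by 64 genes, and 4 of these, Anxa2, Gata3, Hmox1 and Krt8, were left out by name. The names to leave out were solute carriers, keratins, S100 proteins, annexins, claudins, Zfp genes and a short list of single genes. The members were thus selected on the control embryos' own levels at both stages, so their control levels and their rise in control embryos are given as a description with no test. The embryos sired by heated males took no part in the choice. Their rise was tested within the heat embryos alone, while the comparisons of heat with control embryos share the control embryos that chose the members.

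The study asked what heating a male mouse does to his sperm small RNA and to the embryos he sires. Adult males aged 8 to 12 weeks spent 7 days either in a cycle of 8 h at 35 °C and 16 h at 25 °C or, as sham controls, at a constant 21 °C. Single embryos were then sequenced from poly(A) RNA, and the table holds 34 4-cell embryos (16 control, 18 heat) and 43 morulae (22 control, 21 heat). "Heat" refers throughout to the father, and strain, mother, litter and day of each embryo are not given in the sources used here, so the p-values rest on variation from embryo to embryo and siblings cannot be told apart from unrelated embryos.

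The mouse embryo first lives on RNA stored in the egg, and most of that store is destroyed while the embryo's own genome is switched on. Between the 4-cell stage and the morula the cells begin to adhere, flatten against each other and polarise, and the outer cells start on the path to trophectoderm, the epithelium that later forms the placenta.

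Each embryo's values sum to the same total, so the number of reads behind a value is unknown. The precision stated here rests on the number of embryos and the spread among them. The number of genes above 0 TPM ranged from 6303 to 10274 in 4-cell embryos and from 6480 to 12506 in morulae, and 4 embryos had fewer than 7000. In heat embryos, all 6 morula markers checked rose and all 7 oocyte and 4-cell markers checked fell between the stages. Sperm and spermatid markers summed to a median of 0 TPM in each of the 4 groups. Of 10 cumulus and granulosa markers only Amhr2 was expressed widely enough to be tested. Of 8 blood and macrophage markers 6 were measured, and only Hba-a2 was expressed widely enough. Both genes were lower in heat morulae than in heat 4-cell embryos.

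The regions just before the start of 5 members are shown first because these genes recur below: Fam25c, the gene that marks the set, Akr1b8, its most abundant member, Smim22 and Clic3, the pair with the smallest p-values for paternal heat at 4-cell, and Rhox5, whose level fell into separate ranges among morulae. Each line gives 150 bases up to the annotated transcript start, 5′ to 3′ on the gene's strand, from RefSeq on GRCm38.p6 (mm10). Capitals mark the TATA box letters TATAAA, the CCAAT box, and the GC box letters GGGCGG, each on either strand, and adjacent matches run together.
Fam25c, chr14:34355394-34355543, minus strand: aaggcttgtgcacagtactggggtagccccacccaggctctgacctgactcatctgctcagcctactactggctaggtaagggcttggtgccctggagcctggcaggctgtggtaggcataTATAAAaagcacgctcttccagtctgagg
Akr1b8, chr6:34353996-34354145, plus strand: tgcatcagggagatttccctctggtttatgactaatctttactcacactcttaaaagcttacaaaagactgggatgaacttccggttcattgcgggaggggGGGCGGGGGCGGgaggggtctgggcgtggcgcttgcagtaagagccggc
Smim22, chr16:5007138-5007287, plus strand: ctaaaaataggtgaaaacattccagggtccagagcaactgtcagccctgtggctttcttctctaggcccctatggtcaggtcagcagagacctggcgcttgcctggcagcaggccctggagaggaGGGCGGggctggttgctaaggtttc
Clic3, chr2:25456693-25456842, plus strand: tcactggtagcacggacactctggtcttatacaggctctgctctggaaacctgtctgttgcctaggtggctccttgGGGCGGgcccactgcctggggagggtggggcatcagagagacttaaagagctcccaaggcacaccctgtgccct
Rhox5, chrX:37754458-37754607, plus strand: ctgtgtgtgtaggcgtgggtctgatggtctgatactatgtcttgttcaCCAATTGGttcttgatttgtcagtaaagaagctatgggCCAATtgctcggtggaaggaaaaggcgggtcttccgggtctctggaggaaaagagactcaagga

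RefSeq annotated 58 of the 60 as protein-coding and 2, 2410003L11Rik and Gm14005 (Morrbid), as long non-coding RNAs. Chromosome 2 carried 9 members, 15% of the set against 8.27% of the genes tested, and chromosome X carried 4, which was 6.67% against 3.08%. Promoter windows of 250 bases before and 50 after the start were held for 47 of the 60 genes, in 57 windows. Their median GC content was 58% against 52.7% over all 32851 windows. GGGCGG occurred in 54.4% of the members' windows and in 35.7% of all windows, both strands searched. TATAAA occurred in 22.8% against 13.6%, and TGACNNNGC, the core of the antioxidant response element, in 22.8% against 12.4%. For GGAATG, bound by TEAD factors, the shares were 14% and 14.7%. These are descriptions of letters in a window, with no test, and a match is not a bound site. The CCAAT box occurred in 38.6% against 37.4%. The GATA factor motif AGATAA occurred in 7.02% against 11.2%. The TFAP2 factor motif, spelled GCCNNNGGC, occurred in 21.1% against 16.6%. For KLF factors, whose motif was searched as GGGTGTG, the shares were 8.77% and 7.95%. The AP-1 motif TGANTCA occurred in 8.77% against 7.81% and the E-box CACGTG in 8.77% against 7.15%. The core of the heat shock element, GAANNTTC, occurred in 7.02% against 7.86%.

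The limits cut through a continuous range of levels. Just under the low limit lay Akr1b8, with a control 4-cell median of 0.99 TPM, and closest above it lay Ndufaf3 at 1.02 TPM and H2afy at 1.11 TPM. At the high limit, Psrc1 was the nearest member with a control morula median of 20.1 TPM, and Camk1 at 19.3 TPM was the nearest gene outside. The control 4-cell median was 0 for 38 members. In control morulae 14 members had a median of at least 50 TPM and 5 a median of at least 100 TPM, and the middle of the 60 medians was 29.3 TPM.

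**Figure D1:**
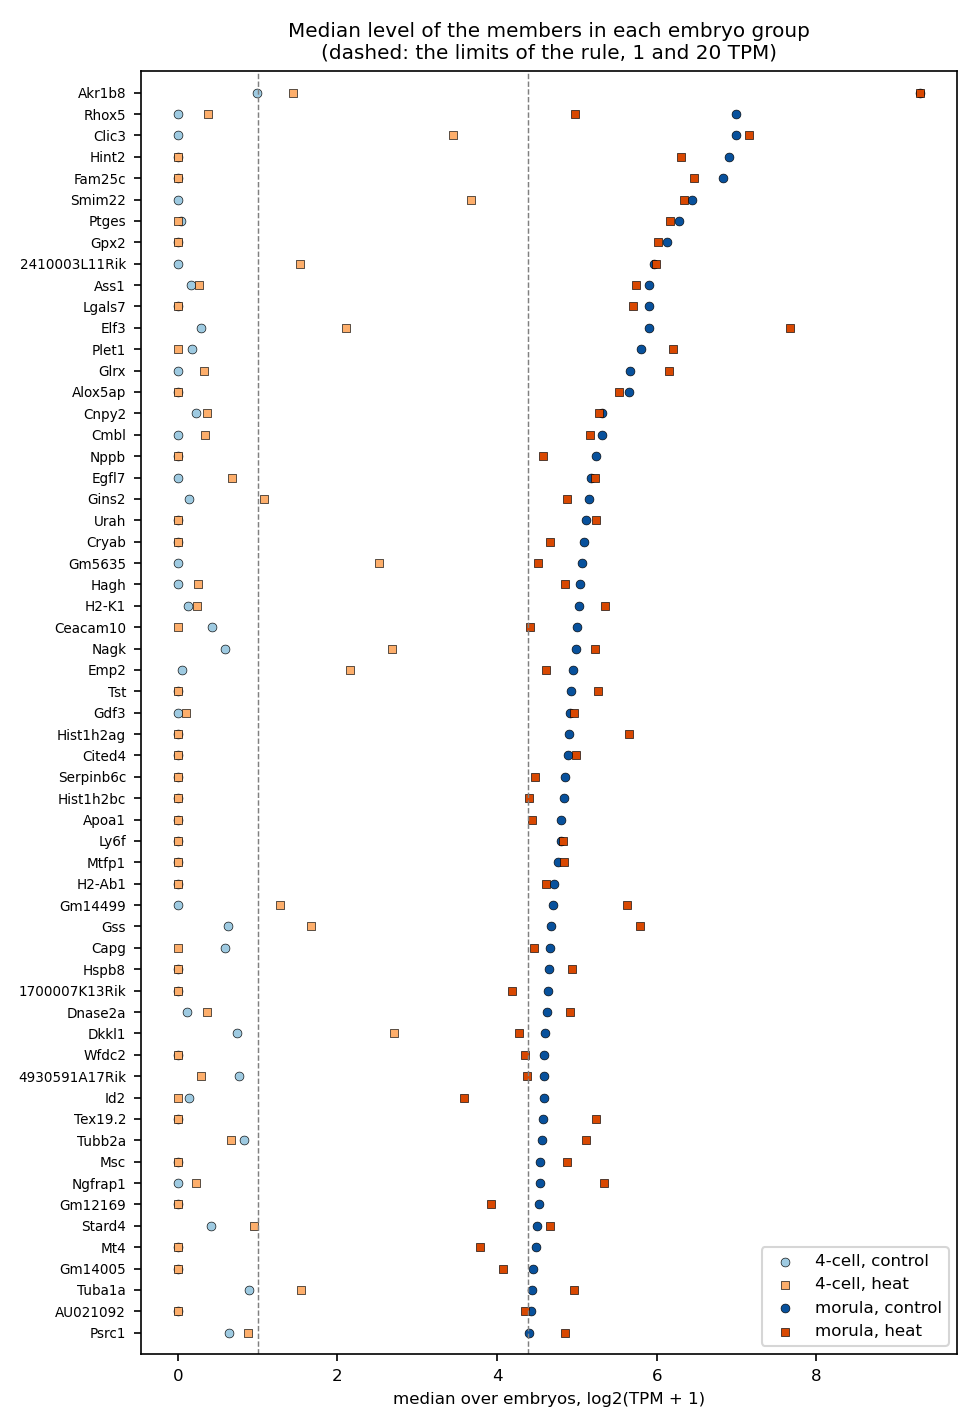
Median level of the members shown in the 4 embryo groups on the log2(TPM + 1) scale, ordered by the control morula median. Pale symbols are 4-cell embryos and dark symbols morulae, circles are control and squares heat. The control symbols lie outside the dashed limits of 1 and 20 TPM by choice, while some 4-cell heat medians lie at or above 1 TPM and 9 heat morula medians lie under 20 TPM.

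Most of the set also rose in heat embryos. From 4-cell to morula in heat embryos, 58 of the 60 members rose by limma with Benjamini-Hochberg adjustment over 8689 tested genes (adjusted p under 0.05 and a log2 difference of at least 1), against 18.1% of all tested genes. The median log2 difference of the members was 3.89, on the log2(TPM + 1) scale, against 0.03 over all tested genes, and the largest adjusted p among the 58 was 0.00525. When the fit also held each embryo's count of detected genes, which is higher in morulae, 52 members rose, against 732 of all 8689 tested genes. All 60 passed the filter on low values through their control morulae, which are not in this contrast. Each library is a whole embryo, so more cells expressing a gene and more RNA per cell cannot be told apart.

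For 11 members every heat morula lay above the highest 4-cell heat embryo, against 0.587% of the genes tested. They were Akr1b8, Alox5ap, Ceacam10, Cryab, Gdf3, Gm12169, Gpx2, H2-K1, Plet1, Ptges and Tst. Across the set, 46 members were at 1 TPM or more in every heat morula.

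Enzymes of redox chemistry and small-molecule metabolism included the most abundant member. Akr1b8, an aldo-keto reductase that reduces aldehydes, had a lowest, median and highest level of 0, 1.73 and 48.9 TPM in 4-cell heat embryos and of 120.7, 628 and 1151 TPM in heat morulae. The stages did not overlap, and the log2 difference was 7.16 ± 0.40 (SE, n = 18 and 21, limma adjusted p = 6.7e-19). Its median in control morulae was 628 TPM as well. Gpx2, a glutathione peroxidase, reached at most 0.45 TPM in any 4-cell heat embryo and had a lowest, median and highest level of 4.11, 63.9 and 179 TPM in heat morulae. It was thus at 1 TPM or more in no 4-cell heat embryo and in all 21 heat morulae, and its log2 difference was 5.71 ± 0.32 (SE, limma adjusted p = 9.32e-19).

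A pair of lipid mediator genes was among the tightest of the set. Ptges, which makes prostaglandin E2, ran from 0 to 7.46 TPM in 4-cell heat embryos and from 30.2 to 121 TPM in heat morulae, with a morula median of 70.8 TPM. Alox5ap, the partner protein of 5-lipoxygenase in leukotriene synthesis, ran from 0 to 5.84 TPM and from 23.3 to 77.1 TPM, with a morula median of 45 TPM. Neither gene overlapped between the stages. Alox5ap had the smallest spread of any member in heat morulae, an SD of 0.47 on the log2(TPM + 1) scale, and Ptges the smallest in control morulae, an SD of 0.55, where the middle member had an SD of 1.20 and 1.33, respectively.

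Other enzymes rose too, some of them with overlap between the stages. Tst, the mitochondrial sulfurtransferase rhodanese, was at most 0.87 TPM at 4-cell and at a median of 37.5 TPM in heat morulae. Ass1, argininosuccinate synthase of the urea cycle and arginine synthesis, went from a median of 0.205 TPM to 52.4 TPM, with morulae from 4.96 to 344 TPM. Hint2, a mitochondrial nucleotide-binding hydrolase, went from a median of 0 to 77.7 TPM, but 7 of 18 heat embryos already had 1 TPM or more at 4-cell and the highest had 50.1 TPM. Glutathione metabolism was represented by Gss (glutathione synthetase), Glrx (glutaredoxin) and Hagh (glyoxalase II), whose heat morula medians were 54.4, 70.1 and 27.8 TPM. All 3 rose between the stages.

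Transcription factors and secreted factors formed another group. Elf3, an ETS-family transcription factor of epithelia, had a lowest, median and highest level of 0, 3.32 and 38.5 TPM in 4-cell heat embryos and of 15.9, 202 and 633 TPM in heat morulae. Id2, an inhibitor of bHLH factors that in the mouse is an early mark of outer cells, had a median of 0 at 4-cell and of 11 TPM in heat morulae, the lowest heat morula median of the set. Gdf3, a TGF-beta family ligand, went from a median of 0.07 TPM to 30.3 TPM, and its lowest heat morula, at 16.2 TPM, stood above its highest 4-cell heat embryo, at 12.3 TPM. Msc, a bHLH repressor, and Cited4, a CITED-family protein that binds the coactivators CBP and p300, had heat morula medians of 28.3 and 30.7 TPM from a 4-cell median of 0. Nppb, the precursor of B-type natriuretic peptide, had a heat morula median of 22.8 TPM, and Egfl7, a secreted EGF-like protein, one of 36.3 TPM.

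Plet1, a surface protein of placental and epithelial progenitors, went from a 4-cell heat median of 0 to 72.7 TPM in heat morulae. Cryab and Hspb8, both small heat shock proteins, had a 4-cell heat median of 0 and heat morula medians of 24.3 and 29.8 TPM. Cryab was at 1 TPM or more in none of the 34 4-cell embryos of either kind and in all 43 morulae. The MHC genes H2-K1 (class I) and H2-Ab1 (class II) had heat morula medians of 39.7 and 23.4 TPM, and lie within 263 kb of each other on chromosome 17. Other members lying within 300 kb of each other were Cryab and Plet1 on chromosome 9, Smim22 and AU021092 on chromosome 16, Serpinb6c and Tubb2a on chromosome 13, and the Gm14499 and Gm5635 pair on chromosome X.

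Fam25c, a small protein with no role stated here, varied widely among morulae. At 4-cell it was at 1 TPM or more in 2 of 16 control and 3 of 18 heat embryos. In control morulae its lowest, median and highest levels were 32.3, 113 and 2561 TPM, and in heat morulae 2.01, 87.6 and 497 TPM. The morula groups overlapped over most of their range, and 1 control morula stood far above the others of its group. The log2 difference between stages in heat embryos was 5.82 ± 0.46 (SE, limma adjusted p = 6.42e-14).

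Only Gm14499 and Gm5635 did not pass the test of the rise in heat embryos. They are annotated as Fthl17-ps1 and Fthl17f, members of the X-linked ferritin heavy chain-like 17 family, lie 18.7 kb apart, and share reads to an unknown extent, so their separate levels are uncertain. Gm14499 differed by 1.17 ± 0.87 (SE, log2 scale, limma adjusted p = 0.267) and Gm5635 by 0.84 ± 0.83 (adjusted p = 0.409). At 4-cell, Gm14499 reached 265 TPM and Gm5635 reached 180 TPM in single heat embryos, above every heat morula, whose highest values were 142 and 111 TPM. Their upstream sequences are printed because they show how alike the copies are, with the same capitals as above, 150 bases to the annotated start on GRCm38.p6.
Gm14499, chrX:9043401-9043550, plus strand: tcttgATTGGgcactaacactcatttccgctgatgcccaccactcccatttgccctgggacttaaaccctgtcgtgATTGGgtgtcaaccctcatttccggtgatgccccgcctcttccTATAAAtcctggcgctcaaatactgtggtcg
Gm5635, chrX:9062940-9063089, plus strand: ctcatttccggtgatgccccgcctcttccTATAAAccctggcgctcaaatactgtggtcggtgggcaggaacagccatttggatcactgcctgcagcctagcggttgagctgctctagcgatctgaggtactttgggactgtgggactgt

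The stretch around TATAAA is shared, but its distance from the annotated start is not. The first base of TATAAA lies 31 bases before the start in Gm14499 and 121 bases before it in Gm5635. When the windows were aligned with that shift of 90 bases, 205 of 210 aligned bases were identical, and the longest identical run was 74 bases. In Fam25c the same motif began 29 bases before the start.

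Single embryos at 4-cell already held a variable part of the set. The number of members at 1 TPM or more per embryo ran from 7 to 29 with a median of 14.5 in control 4-cell embryos, and from 8 to 32 with a median of 19 in heat 4-cell embryos. In morulae it ran from 53 to 60 in controls, with a median of 58.5, and from 55 to 60 in heat embryos, with a median of 59. No morula came near the 4-cell range, and the 4-cell groups overlapped almost entirely. The number of detected genes moved with the count: its median was 8260 in control and 8997 in heat 4-cell embryos, and its part in the count was not tested. The members together made up a median of 0.017% of the TPM in control 4-cell embryos and 0.025% in heat 4-cell embryos, and 0.35% and 0.367% in control and heat morulae. The rule held each member's median under 1 TPM over these control 4-cell embryos and at 20 TPM or more over these control morulae. It set no such limit on heat embryos, so lower control counts and shares at 4-cell can follow from the choice and were not tested.

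**Figure D2:**
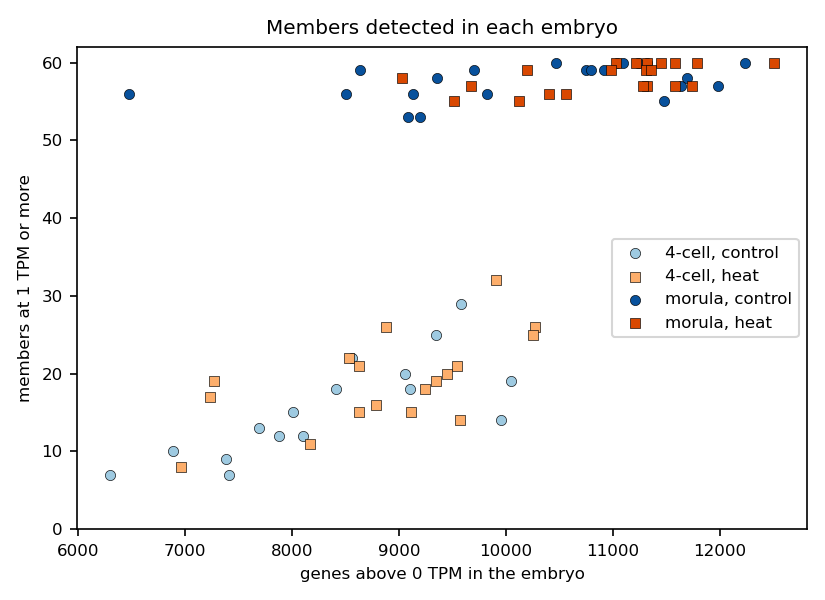
Number of members at 1 TPM or more in each embryo (vertical axis, out of 60) against the number of genes above 0 TPM in that embryo (horizontal axis). Each point is 1 of 77 embryos, circles control and squares heat. All morulae lie between 53 and 60 whatever their detected genes, and 4-cell embryos lie between 7 and 32, with higher counts at more detected genes.

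The members differed in how often they were found at 4-cell. In heat embryos 9 members were at 1 TPM or more in at most 1 of 18, and 4 of these, Cryab, Gm12169, Gpx2 and Tst, in none. At the other end, 15 members reached 1 TPM in 9 or more of the 18, led by Smim22 and Emp2 with 14 each and Nagk, a sugar kinase, with 13. The high 4-cell values were scattered: the highest 4-cell level of the members fell in 28 different embryos, and the embryo with the most held the highest level of 7 members.

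Read with the same limits, the heat embryos overlapped the set in part. In heat embryos 38 of the 60 members had both a 4-cell median under 1 TPM and a morula median of at least 20 TPM, where 0.252% of all 23845 genes did. Of the other 22, 14 had a 4-cell heat median of 1 TPM or more, 9 had a heat morula median under 20 TPM, and Dkkl1, a secreted Dickkopf-like protein, missed both. The heat embryos alone would also have chosen 60 genes, so 63.3% of each list was shared. The distance from the limit varied. Among those over the low limit, the 4-cell heat median ran from 1.115 TPM for Gins2 to 11.7 TPM for Smim22. Among those under the high limit, the heat morula median ran from 11 TPM for Id2 to 19.7 TPM for 4930591A17Rik. A median of 18 or 21 embryos carries its own error, and the crossing of a limit was not tested.

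Paternal heat changed no member at the 4-cell stage by the adjusted test. With limma over 16 control and 18 heat embryos, 0 of 8689 genes passed an adjusted p of 0.05, and 6 members, all higher in heat embryos, had an unadjusted p under 0.05. That is 10% of the members, where 8.98% of all tested genes had such a p in the higher direction. Higher values in heat embryos were general: 61.7% of the members and 72.4% of all tested genes had a positive difference, with a median log2 difference of 0.14 for the members and 0.23 for all genes. The control embryos in this contrast also chose the members, and for the 60 genes that the same limits choose in heat embryos, the median difference was 0.04 and 3 had an unadjusted p under 0.05. Rescaling each embryo by the median ratio of its genes took the median of all genes to 0.11 and that of the members to 0.10.

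Smim22, Clic3, Elf3 and Emp2 had the smallest p-values of the members at 4-cell and are described for that reason. Smim22, a small membrane protein, had a lowest, median and highest level of 0, 0 and 31.3 TPM in control and of 0, 11.7 and 99.1 TPM in heat 4-cell embryos. It reached 1 TPM in 5 of 16 embryos from sham fathers and in 14 of 18 from heated fathers, with overlap between the groups. The log2 difference was 2.16 ± 0.63 (SE, limma p = 0.0015, adjusted p = 0.429). Clic3, of the chloride intracellular channel family, had values of 0, 0 and 20.2 TPM in control and of 0, 9.9 and 66.8 TPM in heat embryos, and was at 1 TPM or more in 3 of 16 and 11 of 18. Its log2 difference was 1.96 ± 0.66 (SE, limma p = 0.00539, adjusted p = 0.429). In a single limma fit to all 77 embryos, which shares 1 estimate of the spread over both stages, the adjusted p of Clic3 was 0.0448 and 23 of 8689 genes passed. The SD of Clic3 on the log2(TPM + 1) scale was 1.57 and 2.31 in control and heat 4-cell embryos. In control and heat morulae it was 0.77 and 0.71, so the SE of 0.48 from the single fit understates the spread of Clic3 at 4-cell.

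Elf3 had a median of 0.225 TPM, with a highest value of 10.5 TPM, in control 4-cell embryos and a median of 3.32 TPM, with a highest value of 38.5 TPM, in heat 4-cell embryos. Emp2, a tetraspan epithelial membrane protein, had a median of 0.04 TPM in control and of 3.45 TPM in heat embryos, and its highest single value, 19.4 TPM, was in a control embryo. The groups overlapped for both genes. The log2 differences were 1.39 ± 0.50 for Elf3 and 1.09 ± 0.40 for Emp2 (SE, both limma adjusted p = 0.429). Nppb was at 1 TPM or more in 0 of 16 control and 7 of 18 heat 4-cell embryos (log2 difference 1.04 ± 0.41, limma adjusted p = 0.429), and Egfl7 in 3 of 16 and 8 of 18 (1.09 ± 0.53, adjusted p = 0.464).

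**Figure D3:**
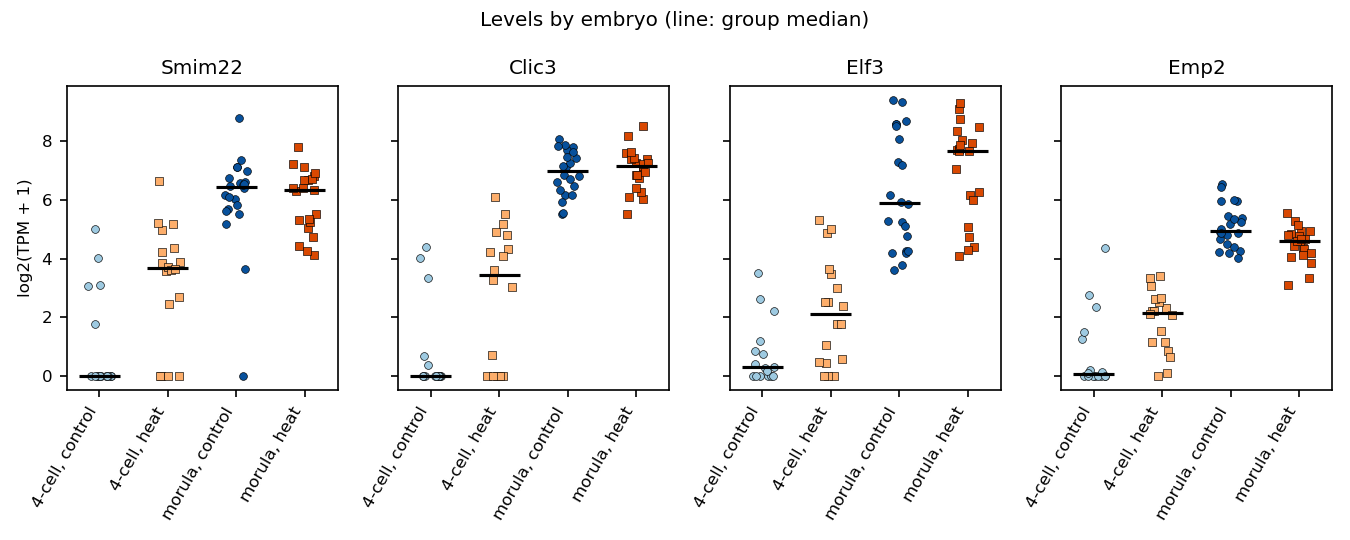
Level of Smim22, Clic3, Elf3 and Emp2 in each embryo on the log2(TPM + 1) scale, by group, with a line at the group median and sideways scatter for legibility. At 4-cell the median lines of heat embryos stand above those of control embryos for all 4 genes, which were chosen for that difference, while single embryos of both groups overlap.

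In morulae the 4 genes did not move alike. Smim22 had medians of 85.6 TPM in control and 79.8 TPM in heat morulae, and Clic3 of 126 and 141 TPM. Their log2 differences were -0.07 (95% interval -0.90 to 0.75) and 0.11 (95% interval -0.34 to 0.56). Emp2 had a median of 30 TPM in control and 23.4 TPM in heat morulae, a log2 difference of -0.59 ± 0.21 (SE, limma p = 0.00714, adjusted p = 0.804). Elf3 had a median of 58.6 TPM in control and 202 TPM in heat morulae, but the single values covered 11.2 to 679 TPM and 15.9 to 633 TPM. With that overlap its difference was 0.69 ± 0.53 (SE, limma adjusted p = 0.838).

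The difference between the stages in the effect of paternal heat was tested as an interaction over all 77 embryos. By limma 0 of 8689 genes passed an adjusted p of 0.05. An unadjusted p under 0.05 with a negative interaction was found for 4 members, 6.67% of the set, and for 3.96% of all tested genes. They were Emp2 at -1.69 (log2 scale, p = 0.000194, limma adjusted p = 0.199), Smim22 at -2.24 (adjusted p = 0.733), Clic3 at -1.85 (adjusted p = 0.834) and Cryab at -0.70 (adjusted p = 0.931). The negative sign means that heat minus control was lower in morulae than at 4-cell. The interaction was below 0 for most of the tested genes too, with 36.7% of the members and 39.5% of all genes above 0. The control embryos that chose the members enter this test at both stages. For the 60 genes that the same limits choose in heat embryos, the median interaction was 0.28 against -0.19 for the members, 61.7% were above 0, and 1 had an unadjusted p under 0.05.

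Paternal heat changed no member in morulae by the adjusted test either. Over 22 control and 21 heat morulae, 0 of 8689 genes passed an adjusted p of 0.05 by limma and 5 members had an unadjusted p under 0.05, all lower in heat morulae. That is 8.33% of the members, where 1.82% of all tested genes had such a p in the lower direction. Of the members, 50% had a positive difference, with a median of -0.04, against 67.2% of all tested genes, with a median of 0.11. The control morulae in this contrast are also the ones that chose the members. For the 60 genes that the same limits choose in heat embryos, the median difference was 0.25, 66.7% were positive and 3 had an unadjusted p under 0.05, so the sign of the median turned with the embryos used for the choice.

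The 5 members that were lower at an unadjusted p under 0.05 were Emp2, Id2, Cryab, Hint2 and Hist1h2bc. Id2 had a lowest, median and highest level of 1.81, 23 and 118 TPM in control and of 1.53, 11 and 31.3 TPM in heat morulae. The groups overlapped, the highest values were in controls, and the log2 difference was -0.88 ± 0.34 (SE, limma p = 0.0134, adjusted p = 0.804). Cryab had a median of 33 TPM in control and 24.3 TPM in heat morulae (-0.66 ± 0.27, limma adjusted p = 0.807), and Hint2 of 119 and 77.7 TPM (-0.55 ± 0.22, limma adjusted p = 0.807). Hist1h2bc, a histone H2B gene, had medians of 27.6 and 20.1 TPM (-0.86 ± 0.42, limma adjusted p = 0.829). At the other end, Gss had a median of 24.5 TPM in control and 54.4 TPM in heat morulae and the largest positive difference, 0.96 with a 95% interval from -0.13 to 2.05.

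**Figure D4:**
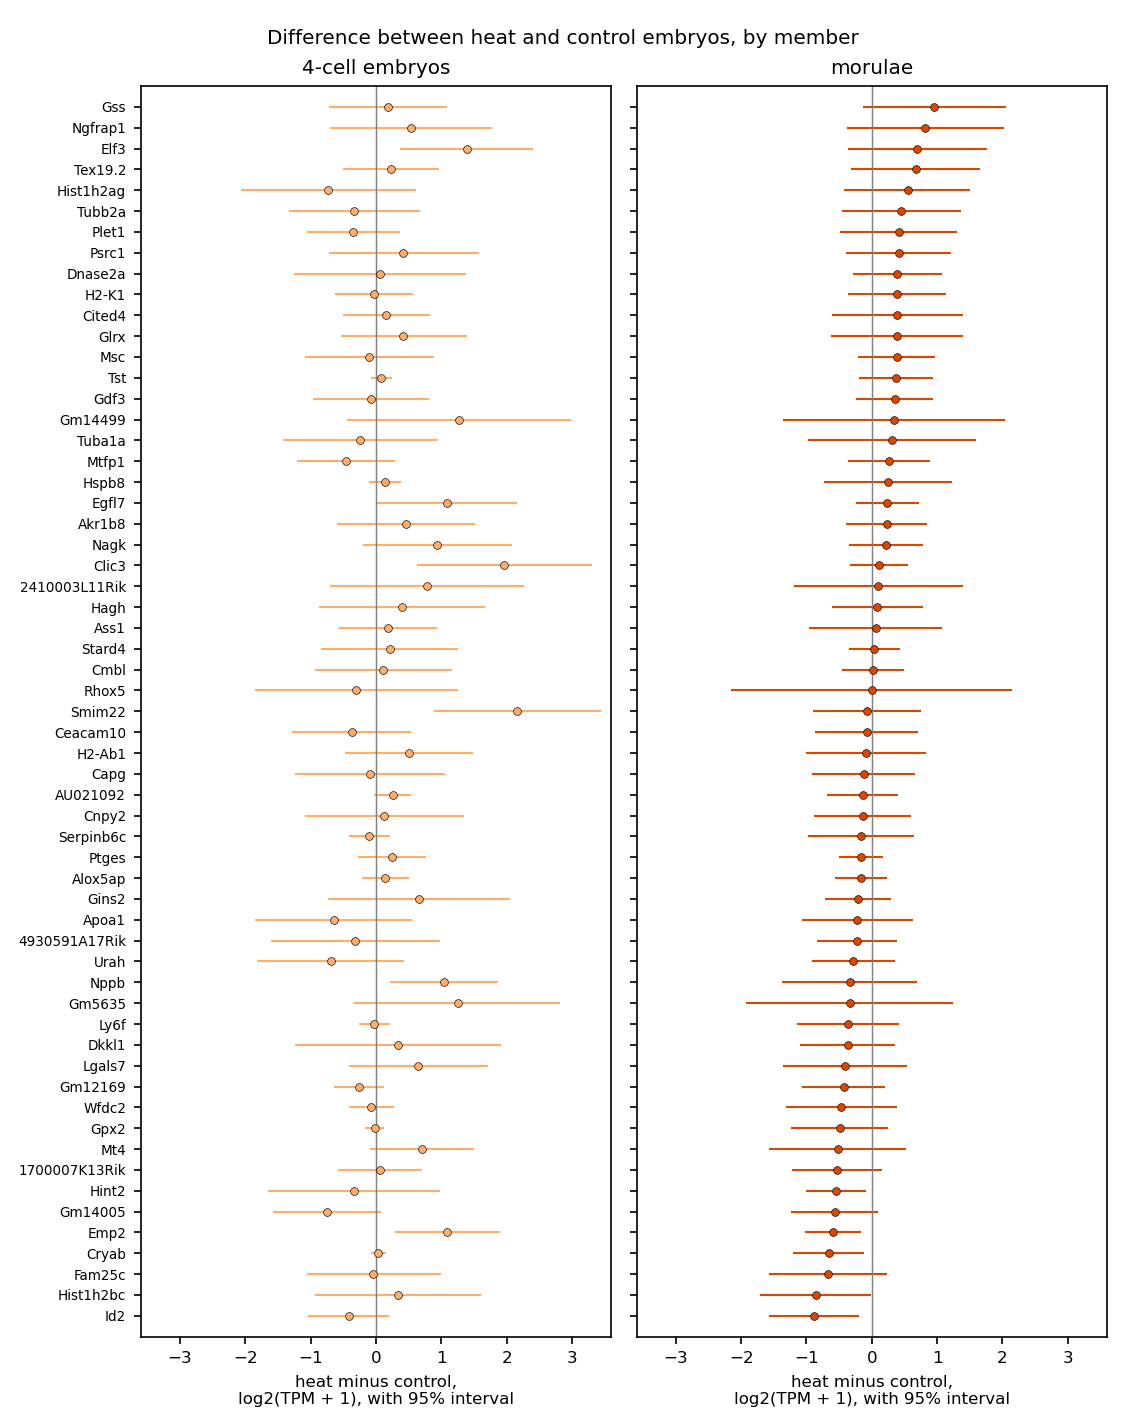
Difference between heat and control embryos for the members shown on the log2(TPM + 1) scale, at 4-cell (left) and in morulae (right), with 95% intervals from limma that are not adjusted for the number of genes. Members are ordered by the morula difference, which runs from -0.88 for Id2 to 0.96 for Gss, and at 4-cell Smim22 at 2.16 and Clic3 at 1.96 lie farthest to the right.

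The intervals set what could have gone unseen. Precision was best for members that were even among morulae: the 95% interval of the heat difference ran from -0.50 to 0.17 for Ptges and from -0.35 to 0.43 for Stard4, a cholesterol transfer protein. For Akr1b8 it ran from -0.39 to 0.85, and for Rhox5 from -2.15 to 2.15.

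Rhox5, an X-linked homeobox gene, was not spread evenly but fell into separate ranges. Its level was 117 TPM or more in 12 of 22 control morulae and at most 2.82 TPM in the other 10. In heat morulae it was 27.7 TPM or more in 12 of 21 and at most 7.65 TPM in the other 9. The control median of 127 TPM and the heat median of 30.5 TPM each lay just above the gap and describe few single embryos, and the log2 difference of the means was 0.00 ± 1.07 (SE, limma adjusted p = 1). The other X-linked members followed the same embryos. Ngfrap1 (Bex3) was at 20 TPM or more in the same 24 morulae as Rhox5 and in no other. Its lowest level in the 24 was 20.4 TPM and its highest in the others 17.8 TPM, so no wide gap set them apart. Gm5635 was at 20 TPM or more in 23 and Gm14499 in 22 of those 24, and in none of the other 19.

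The level of these genes split with a Y-linked gene. Ddx3y, an RNA helicase gene on the Y chromosome, was at 0 in all 24 morulae with Rhox5 at 20 TPM or more and above 0 in 18 of the 19 others. Xist, the RNA that coats the inactive X chromosome, was at 0.1 TPM or more in all 24 and in 6 of the 19. These counts were made after the values were seen, and the embryos' sex is not labelled. Of the control morulae 10 had Ddx3y above 0, of the heat morulae 8, and with its presence as a covariate the fit still called 0 members for paternal heat in morulae. At 4-cell, 8 of 16 embryos from sham fathers and 5 of 18 from heated fathers had Ddx3y above 0. With Eif2s3y, another Y-linked gene, counted as well, either gene was above 0 in 11 and 7 of them, and in 12 of 22 control and 8 of 21 heat morulae, so a Ddx3y of 0 does not show that no Y-linked RNA was present. Gm5635 was at 1 TPM or more in 10 of 18 heat 4-cell embryos, and Ddx3y was at 0 in all 10 and both Y-linked genes in 9. In control 4-cell embryos both Y-linked genes were at 0 in 4 of the 5 with Gm5635.

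**Figure D5:**
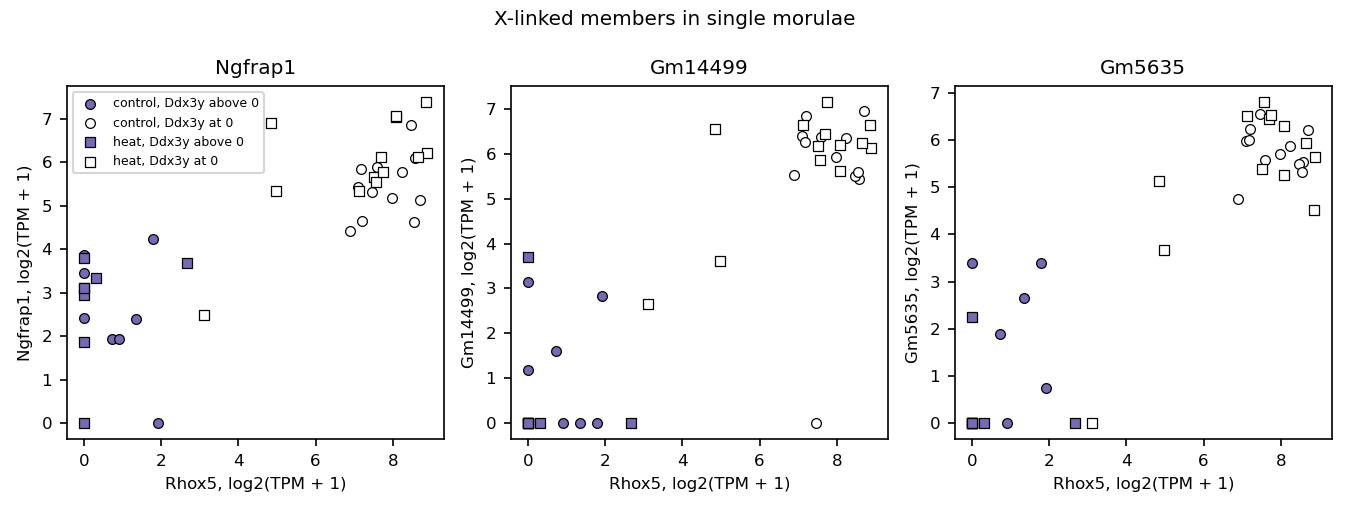
Levels of Ngfrap1, Gm14499 and Gm5635 (vertical axes) against Rhox5 (horizontal axis) in 43 single morulae on the log2(TPM + 1) scale. Circles are control and squares heat, filled where Ddx3y is above 0 and open where it is 0. The 24 morulae with Rhox5 at 20 TPM or more are all open symbols, and of the 19 others 18 are filled and 1, a heat morula, is open.

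Other genes of the embryo, in 12 lists by role of which 8 hold 1 or more members, were followed over the same stages in heat embryos, where the test called 18.1% of all genes higher and 14.4% lower. Of 15 endocytic receptor and apical membrane genes tested, 11 rose and 0 fell, where rose and fell mean called by that test. The member Emp2 and Lrp2 (megalin, log2 difference 2.30 ± 0.24) were among the 11. Cd63, the most abundant gene of that list, had a log2 difference of -0.53 (limma adjusted p = 7.39e-05), too small in size to be called. Its median was 7188 TPM in 4-cell heat embryos and 5157 TPM in heat morulae. Of 22 epithelial cytoskeleton genes, 14 rose and 0 fell, led by Actg1, which went from a median of 140 TPM to 1566 TPM. Of 21 glutathione transferases and peroxidases, 10 rose and 0 fell, with Gpx2 the largest change and Gstm2 next at 3.28 ± 0.36. For aldo-keto and related carbonyl-reducing enzymes, 7 of 11 rose, among them Akr1b8 and Akr1b3, and Hsd17b14 fell.

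Junction genes rose in 10 of 17, lipid binding and storage genes in 8 of 12, with Fabp5 at 4.46 ± 0.35 ahead of the member Apoa1 at 3.67 ± 0.41, and protease and protease inhibitor genes in 8 of 11, with the member Serpinb6c at 4.19 ± 0.35. Basement membrane and integrin genes rose in 5 of 9, and none of these 4 lists held a gene that fell. Glycolysis and hypoxia genes rose in 9 of 18, and Ldhb, the lactate dehydrogenase subunit of the oocyte, fell by 4.15. Other lists went both ways. Of 22 lysosomal proteins and galectins 6 rose, Lgals7 among them, and 6 fell. Of 31 transcription factors outside the trophectoderm core 10 rose, with Elf3, Id2 and Rhox5, and 5 fell. Of 22 signalling ligands and receptors 8 rose, with Gdf3, and 3 fell.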

How the data were processed

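The authors deposited TPM for 23845 genes in 77 single embryos, with each column summing to 1000000 within rounding. The mm10 genome and the tools RSEM, Bowtie2 and Trimmomatic are listed, per the submitters' processing notes. Their versions, and how reads shared by near-identical genes were counted, are not given in the sources used here. TPM keeps no depth, and with a fixed sum a rise of some genes lowers the others. Sperm small RNA counts were not used here.

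Tests were run on log2(TPM + 1) by limma 3.58.1 in R 4.3.3 (trend, moderated variance), with Benjamini-Hochberg adjustment over the 8689 genes at 1 TPM or more in at least 50% of the embryos of 1 group or more. A pseudocount of 1 understates the change of low genes. Heat contrasts within a stage used that stage's embryos, the stage contrast used heat embryos, and the interaction used all 77. The fits were tested on simulated data. The members and the gene lists were chosen with earlier results of these data known. Named members were those with the highest control morula medians, the largest differences and smallest p-values for paternal heat, those found in the most and fewest 4-cell heat embryos, those that did not rise, those on the role lists, those nearest the limits, and Fam25c. Alternatives changed the pseudocount, filter, scaling, weights, covariates, embryos and limits. All 60 members matched RefSeq genes, 6 of them by an older symbol. A member is counted in the totals but not reported here by name or drawn.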

Additional observations from a re-analysis of the deposited data

How the results depend on the processing

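The rise in heat embryos was called for 52 to 58 members under every alternative that kept the 60 members, the lowest when the fit held each embryo's count of detected genes, where Gm5635 turned to -0.01 and Dkkl1 and Rhox5 did not pass. Of all 8689 tested genes, that fit called 732 upward. The alternatives that tested the same 8689 genes called from 475 to 2190 of them upward. With a pseudocount of 10 the rise was called for 56 members, against 475 of all 8689 tested genes, and Dkkl1 did not pass. Other limits changed the number of members: with 0.5 and 40 TPM, 14 of 14 were called and 9 of 14 met the limits in heat embryos, and with 2 and 10 TPM, 156 of 166 were called and 113 met them. Both sets were read from the main fit, which called 18.1% of all tested genes upward. Paternal heat was called for 0 members at 4-cell, in morulae and in the interaction under each alternative run, except for 1 member, Clic3, at 4-cell in the fit to all 77 embryos. That fit shares 1 spread over both stages, and Clic3 varied more at 4-cell than in morulae. Of 211 refits of single members, 206 kept direction and call. Most of them were refits of a comparison that the main fit did not call, where keeping the call means staying uncalled. Deviations of same-numbered control and heat embryos correlated over 0.1 in 1 of 16 pairs at 4-cell and 7 of 21 in morulae. The median correlation was -0.052 at 4-cell and -0.036 in morulae, and the highest was 0.18 and 0.72, respectively. These values cannot show whether embryos shared a father, litter or day. With the replicate number as a block 58 members rose in heat embryos, against 1468 of all 8689 tested genes. In each of the other comparisons that fit called 0 members. Leaving out the 4 embryos under 7000 detected genes left the member counts at 58 and 0, with 1500 of all 8689 tested genes called upward. That alternative and the Ddx3y covariate were chosen after seeing the data. Rescaling by median ratios moved the median stage difference of all genes from 0.03 to 0.28 and that of the members from 3.89 to 4.00. TPM carries no depth, so a value of 0 sets no limit on how many transcripts an embryo held.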

Other observations

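Applying the same limits to the heat embryos brought in 22 genes that were not members. Of these, 16 had a control morula median under 20 TPM, 8 had a control 4-cell median of 1 TPM or more, and 2, Lsr and AI662270, had both. Stard10, a lipid transfer protein, was the most abundant, with a median of 101 TPM in heat and 85.8 TPM in control morulae. Its 4-cell median was 0.22 TPM in heat and 3.24 TPM in control embryos. Gm5634 (Fthl17b), another row of the Fthl17 family, had a median of 27.8 TPM in heat and 14.6 TPM in control morulae. All 7 rows of this family lie on chromosome X, and their counts can be split between near-identical copies. Among the 24 morulae with Rhox5 at 20 TPM or more, Gm5634 was at 1 TPM or more in 24, and among the other 19 in 5. For Fthl17 (Fthl17e) the numbers were 23 and 1, and for 1600014K23Rik (Fthl17a) they were 23 and 15.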
